A study of Homo sapiens with 6 samples.

Results

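RNA polymerase II (Pol II) subunit genes are described here in lyophilized and control B-lymphoblastoid cells. The 10 genes, POLR2A, POLR2B, POLR2C, POLR2D, POLR2E, POLR2G, POLR2H, POLR2I, POLR2K and POLR2L, were taken by symbol from 23284 gene symbols. All 10 passed the filter on low values that left 11128 genes for testing. The set was chosen by its measured values, because POLR2A had been seen to be lower in the lyophilized samples, and the question was whether the large subunit changed alone or with the other 9. The lyophilized against control values of these genes are therefore a description and carry no support of their own.

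Pol II is the enzyme that makes all messenger RNA precursors in the nucleus. The products of POLR2A and POLR2B form the active site cleft, and around them sit an assembly platform, a detachable stalk and several small subunits, some of which are shared with RNA polymerases I and III. The POLR2A protein ends in the C-terminal domain (CTD), a long tail of repeated units rich in serine and proline whose phosphorylation marks initiation, elongation and termination and recruits the capping, splicing and 3′ processing machineries. The subunits work as 1 complex, but each is made from its own messenger RNA.

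The samples came from GM12873, an Epstein-Barr virus immortalized B-lymphoblastoid line of 1 donor, and the labels name no genetic change in either group. In the 3 Control samples, cells were washed and lysed directly. In the 3 Lyo samples, cells of the paired batch were freeze-dried in 0.1 M trehalose and kept dry at room temperature for 2 weeks before lysis. Trehalose, freezing, drying and storage came together in every Lyo sample, so their parts in a difference cannot be told apart. Poly(A)-selected RNA was sequenced as 75-base single reads, with a kit that does not keep the strand.

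The 6 tables gave FPKM (fragments per kilobase of transcript scaled to the mapped reads of the library), which is a level per length and can be compared between genes. They summed to between 468790 and 524744 per sample. The tables hold no counts per gene, so no counting interval was computed. The study lists raw reads per library, with the fewest in Control 1 and the most in Lyo 1. The spacing of the lowest values put the other 5 libraries at 1.38 to 1.89 times the depth of Control 1. The 6 B cell markers summed to 2870 to 3790 FPKM in the controls against 2610 to 3500 FPKM in the Lyo samples. The 4 T cell markers summed to at most 0.379 FPKM and the 3 myeloid markers to at most 0.86 FPKM in any sample, and of the 3 NK cell markers NKG7 had 4.35 to 7.74 FPKM in all 6 samples while no other exceeded 0.0639. Where the FPKM of a gene falls in a bulk sample, fewer cells carrying its RNA and less of that RNA per cell cannot be told apart. Nor can less of that RNA at harvest and loss of it after harvest.

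The coding sequences of the subunits differ in length and base composition, and these stretches are shown because base composition varied with the measured change over all genes. POLR2A lies at chr17:7387698-7417935 on the plus strand of GRCh37 (hg19), in 29 exons, with a coding sequence of 5910 bases or 1970 codons. Of these codons, 19.2% lie from the first CTD repeat onward, and the tail holds 21 exact consensus repeats of 7 codons, the longest run of which has 15. All 4 stretches below are exonic, coding and on the strand of the gene, and the capitals mark the wobble base, the last base of each codon. The first holds the opening 21 codons of the longest run of consensus repeats, at chr17:7416489-7416551. The other 3 hold the last 20 codons before the stop of POLR2A (chr17:7417434-7417493), POLR2B (chr4:57897092-57897151) and POLR2E (chr19:1089488-1089547, minus strand).
POLR2A CTD: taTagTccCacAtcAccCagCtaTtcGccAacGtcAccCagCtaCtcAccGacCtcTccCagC
POLR2A end: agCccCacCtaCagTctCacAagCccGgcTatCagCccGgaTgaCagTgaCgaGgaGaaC
POLR2B end: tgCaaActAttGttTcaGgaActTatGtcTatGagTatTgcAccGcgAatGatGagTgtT
POLR2E end: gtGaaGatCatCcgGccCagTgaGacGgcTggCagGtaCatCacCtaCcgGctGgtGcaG
A wobble base of G or C stands in 12 of 21 codons of the CTD stretch. At the ends of the genes it stands in 15 of 20 codons of POLR2A, in 8 of 20 of POLR2B and in 18 of 20 of POLR2E. Over the whole coding sequences, G or C made up 68.5% of wobble bases in POLR2A, 36.3% in POLR2B and 86.7% in POLR2E. The large subunit gene therefore stood between the other large subunit gene and a small shared one in this measure.

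POLR2A encodes the largest subunit, which carries part of the active site and the CTD. It had 32.5, 29.2 and 32.5 FPKM in Control 1 to 3, and 15.4, 11.5 and 13.0 FPKM in Lyo 1 to 3. The 3 Lyo values were all below the lowest control value, and the groups did not overlap. Mean levels were 31.4 FPKM ± 1.92 (SD, n = 3) for the controls and 13.3 FPKM ± 1.96 (SD, n = 3) in the Lyo samples, or 42.3% of the control mean. In the limma fit on log2(FPKM + 0.1), the scale of all fold changes given here, the change was -1.24 ± 0.13 (SE), a 2.37-fold lower level. The drop was present in each pair, with log2 differences of -1.08, -1.34 and -1.31 in pairs 1, 2 and 3. In order of fold change, POLR2A stood at place 23 from the bottom of the 11128 genes.

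POLR2B, at chr4:57845109-57897334, encodes the second large subunit, which faces POLR2A across the active site. It had 25.7, 43.4 and 36.1 FPKM in Control 1 to 3 and 39.2, 42.9 and 45.6 FPKM in Lyo 1 to 3. The Lyo values lay within or just above the control range, and Control 1 was the lowest sample. The log2 fold change was 0.31 ± 0.19 (SE), with pair differences of 0.61, -0.016 and 0.34. The ratio of POLR2A to POLR2B FPKM was 1.27, 0.673 and 0.902 in Control 1 to 3, and 0.392, 0.268 and 0.285 in Lyo 1 to 3. The ratio was thus below the lowest control in every Lyo sample, with means of 0.948 ± 0.301 and 0.315 ± 0.0672 (SD, n = 3 each).

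POLR2C, on chr16:57496551-57505921, encodes the subunit on which the enzyme core is assembled. Its FPKM values were 31.5, 30.5 and 29.1 in Control 1 to 3 and 31.8, 36.0 and 30.1 in Lyo 1 to 3, so the groups overlapped. The control level was close to that of POLR2A, yet the log2 fold change was 0.10 ± 0.11 (SE). The stalk that contacts the emerging RNA is made by POLR2D and POLR2G. POLR2D, on chr2:128603840-128615729, had 18.7, 24.8 and 22.6 FPKM in the controls against 18.5, 24.1 and 22.8 FPKM in the Lyo samples, almost the same value within each pair. POLR2G, on chr11:62529011-62534187, had 81.9, 98.6 and 88.3 FPKM in the controls against 87.4, 110.0 and 88.3 FPKM in the Lyo samples. Both pairs of ranges overlapped, and the log2 fold changes were -0.01 ± 0.15 and 0.08 ± 0.14 (SE).

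POLR2I encodes a small subunit found only in Pol II, which takes part in start site choice and proofreading. Its FPKM values were 30.1, 36.0 and 28.4 in Control 1 to 3 and 32.3, 44.7 and 25.5 in Lyo 1 to 3, and the Lyo samples held both the highest and the lowest value. The log2 fold change was 0.09 ± 0.21 (SE). POLR2I, at chr19:36604611-36606206, is uncertain in these libraries, because 47.4% of its 443 exon bases are also exon bases of other annotated genes, TBCB and OVOL3 among them, and the reads carry no strand. For the other 9 genes the shared part was at most 12.7%, which POLR2L reached through CD151. Of the 75-base stretches within exons, at most 1.3% (POLR2E) had a second exact copy in the genome, and POLR2A had none.

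POLR2E, POLR2H, POLR2K and POLR2L encode subunits shared by RNA polymerases I, II and III. POLR2E, at chr19:1086578-1095391, had 48.6, 52.8 and 50.1 FPKM in the controls against 42.4, 53.1 and 45.9 FPKM in the Lyo samples, with a log2 fold change of -0.11 ± 0.12 (SE). It was the lowest change among the other 9 genes, and its groups overlapped. POLR2H, at chr3:184081194-184086363, had 78.9, 83.8 and 77.3 FPKM in the controls against 80.7, 97.8 and 79.1 FPKM in the Lyo samples, a log2 fold change of 0.10 ± 0.12 (SE). POLR2L, at chr11:839721-842529, had 46.9, 65.3 and 62.2 FPKM in the controls against 52.0, 72.8 and 60.2 FPKM in the Lyo samples, a log2 fold change of 0.09 ± 0.17 (SE). The zinc-binding subunit gene POLR2K, at chr8:101162839-101166230, had 45.04, 63.3 and 47.2 FPKM in the controls against 53.7, 74.9 and 63.4 FPKM in the Lyo samples. It was higher in the Lyo sample of every pair, by log2 differences of 0.25, 0.24 and 0.42, although the ranges of the groups overlapped.

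**Figure D1:**
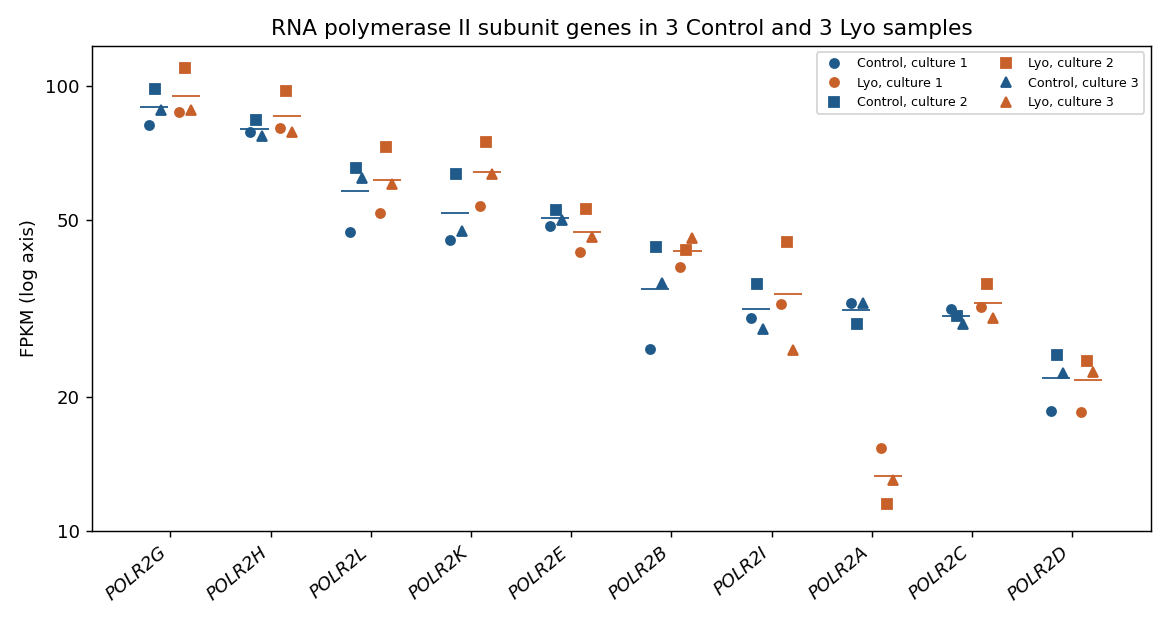
FPKM of the 10 subunit genes (log axis), ordered by control mean, with 1 point per sample. The shape shows the pair (named culture in the key), and a line shows the group mean. POLR2A lies at 29.2 to 32.5 in the controls and at 11.5 to 15.4 in the Lyo samples, while for each of the other 9 genes the points of both groups overlap.

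In the controls the subunit genes ran from POLR2G at 89.6 FPKM ± 8.45 and POLR2H at 80.02 FPKM ± 3.39 down to POLR2D at 22.0 FPKM ± 3.12 (SD, n = 3 each). POLR2B, POLR2I, POLR2A and POLR2C followed each other at 35.04, 31.5, 31.4 and 30.4 FPKM, and neighbours in that stretch had overlapping ranges. Gaps between neighbouring ranges stood only below POLR2H, below POLR2E and below POLR2C. POLR2A was place 8 of 10 by mean in the controls and place 10 in the Lyo samples, the lowest of the 10 in each of the 3. Its part of the summed FPKM of the 10 genes was 7.4, 5.53 and 6.86% in Control 1 to 3 and 3.39, 2.02 and 2.75% in Lyo 1 to 3. The sum over the other 9 genes was 449 FPKM ± 46.2 in the controls against 485 FPKM ± 62.7 in the Lyo samples (SD, n = 3 each), and its ranges overlapped.

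POLR2A was thus the single subunit gene among the 10 whose groups did not overlap. Over all genes tested, 12.6% had every Lyo value below every control value, and 9.66% had every Lyo value above every control value. Limma without the pairing called 1 of the 10 genes lower, POLR2A, and 0 of the other 9 in either direction. The same fit called 0.557% of all genes lower and 0.018% higher. At an unadjusted p under 0.05, also 0 of the other 9 passed, beside 1573 of all 11128 genes. Because this contrast chose POLR2A, nothing is read from its call. The call did not hold in limma when any 1 of the 6 samples was left out (Control 1, 2 or 3, or Lyo 1, 2 or 3), with adjusted p of 0.0529 to 0.253, whereas the fold change stayed between -1.35 and -1.14. In each of those fits 0 of all 11128 genes passed, so the lost call was not particular to POLR2A.

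The fitted changes of the other 9 genes had a median of 0.09 and ran from -0.11 to 0.31, against a median of 0.04 over all genes tested. None of their 95% intervals in limma reached below -0.39, the lower end for POLR2I, whereas the interval of POLR2A ran from -1.56 to -0.93. The intervals also show what was not detectable. For POLR2D the interval was -0.37 to 0.34 without the pairing and -0.15 to 0.13 with the pair as a block, and for POLR2B it reached 0.75 without the pairing. The difference between POLR2A and the median of the other 9 was -1.17, -1.50 and -1.33 in pairs 1, 2 and 3.

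The study pairs the Control and Lyo samples of the same number, and with the pair as a block limma called 2 of the other 9 genes higher. They were POLR2B, at 0.31 ± 0.10 (SE, adjusted p = 0.0407), and POLR2K, at 0.31 ± 0.06 (SE, adjusted p = 0.00512). This count stands beside 15.9% of all genes called higher and 14.9% called lower in that fit. POLR2A was called lower in it too, at -1.24 ± 0.07 (SE). POLR2B and POLR2K have the lowest transcript GC content of the 10, at 41.9% and 35.7%.

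**Figure D2:**
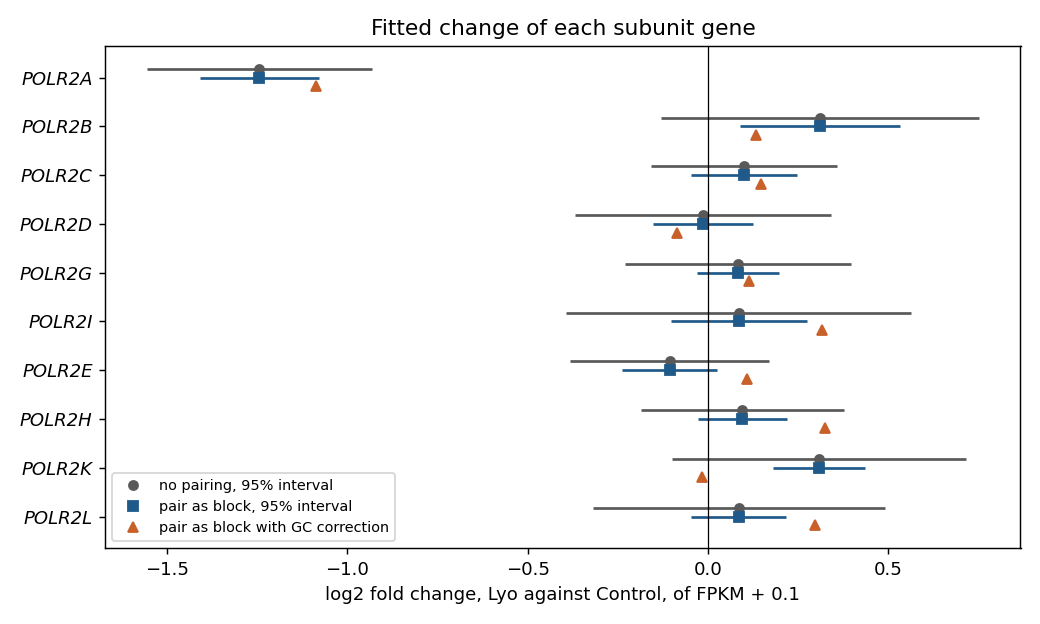
Fitted log2 fold change of each subunit gene, Lyo against Control, with 95% intervals for the fit without pairing (grey) and with the pair as block (blue), and the value after GC correction (orange). POLR2A sits at -1.24 and moves to -1.09 with the correction, and the other 9 genes lie between -0.11 and 0.31 before it.

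Transcript GC content moved with the change over all genes. The median log2 fold change fell from 0.29 in genes of up to 40% GC to -0.15 in genes of 55 to 60% and to -0.29 above 65%. POLR2A, with 56.3% GC, lay in the bin of 55 to 60%, in which the 1702 genes had a 10th percentile of -0.50. POLR2E, POLR2H, POLR2I and POLR2L had a higher transcript GC content than POLR2A, at 59.5, 60.2, 60.3 and 59.4%, and their changes lay between -0.11 and 0.10. Their transcripts were shorter than that of POLR2A, at 2854, 1807, 443 and 876 bases. In the coding sequence alone, 3 of the 9 were above the 56.2% of POLR2A, since that of POLR2H held 47.1%. POLR2A also had the longest transcript of the 10, 6304 bases, against 443 for POLR2I to 5038 for POLR2D. Over all genes, the median change was 0.10 in transcripts up to 1000 bases, 0.03 at 1000 to 2000, -0.002 at 2000 to 4000, 0.05 at 4000 to 6000 and 0.12 over 6000 bases. The 10th percentile was -0.18 in the shortest bin, -0.42 at 4000 to 6000 bases and -0.40 in the longest.

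With the pair as a block and a GC curve subtracted in each sample, the change of POLR2A was -1.09 ± 0.07 (SE), at place 15 from the bottom of 10860 genes. The curve alone had a value of -0.16 at its GC content. When GC and length were taken out together, the change of POLR2A was -0.88, and the curve had a value of -0.36 there. With the GC correction, limma called 3 of the other 9 genes higher and none lower, beside 9.53% and 7.45% of all genes. These were POLR2H at 0.32 ± 0.04 (SE, adjusted p = 0.00304), POLR2L at 0.30 ± 0.05 (SE, adjusted p = 0.0077) and POLR2I at 0.32 ± 0.07 (SE, adjusted p = 0.0195). POLR2B then stood at 0.13 (adjusted p = 0.227) and POLR2K at -0.02 (adjusted p = 0.853), both past the threshold with the block alone and not with the correction. Which of the other 9 genes were called higher thus depended on the correction, and with GC and length together it was POLR2H alone. The part of GC content and length in the change of POLR2A beyond these corrections was not tested.

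**Figure D3:**
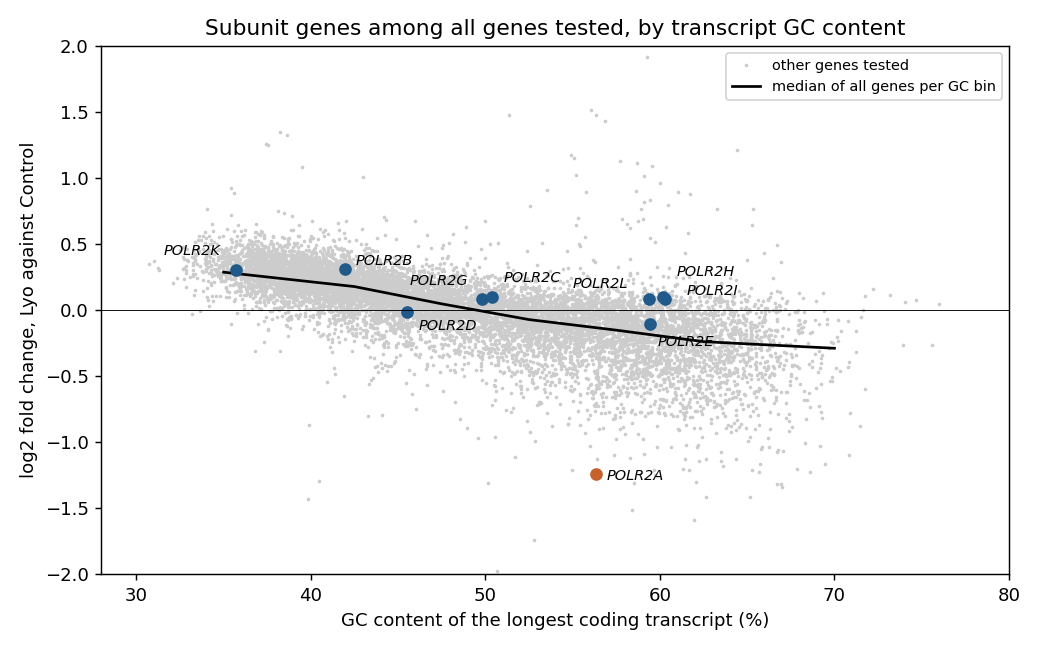
Log2 fold change of all genes tested that have an annotated transcript (grey, 6 genes beyond the axis left out) against transcript GC content in percent, with the median per GC bin (line), POLR2A in orange and the other 9 subunit genes in blue. The median falls with GC content, and POLR2A lies far below it. POLR2E, POLR2H, POLR2I and POLR2L lie near 0, with a higher GC content and shorter transcripts than POLR2A.

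Among the 5 genes whose profile over the 6 samples was nearest to that of POLR2A were ZNF628, GLTSCR1, PLEC and PTPN23. ZNF628, a zinc finger gene, was the nearest, with a root mean square difference of 0.0864 on the log2 scale and a Pearson r of 0.999 over the 6 samples. It had 1.83, 1.69 and 1.83 FPKM in the controls against 0.879, 0.71 and 0.762 FPKM in the Lyo samples. PLEC, which encodes the cytoskeletal linker plectin, had a log2 fold change of -1.34. GLTSCR1, a chromatin remodeling subunit gene, and PTPN23, which encodes a phosphatase-like protein of endosomal sorting, had -1.23 and -1.04. These 4 genes had root mean square differences of at most 0.118, and their transcripts had 62.1 to 70.8% GC and 3562 to 15249 bases. No other subunit gene was near: POLR2E, the nearest of them, stood at 0.613, at place 3305 in that order. The r values and the root mean square differences describe 6 libraries and both contain the group difference for which POLR2A was chosen. The distance of the other subunit genes from POLR2A therefore restates that difference and adds nothing to it. No test was made of these values.

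**Figure D4:**
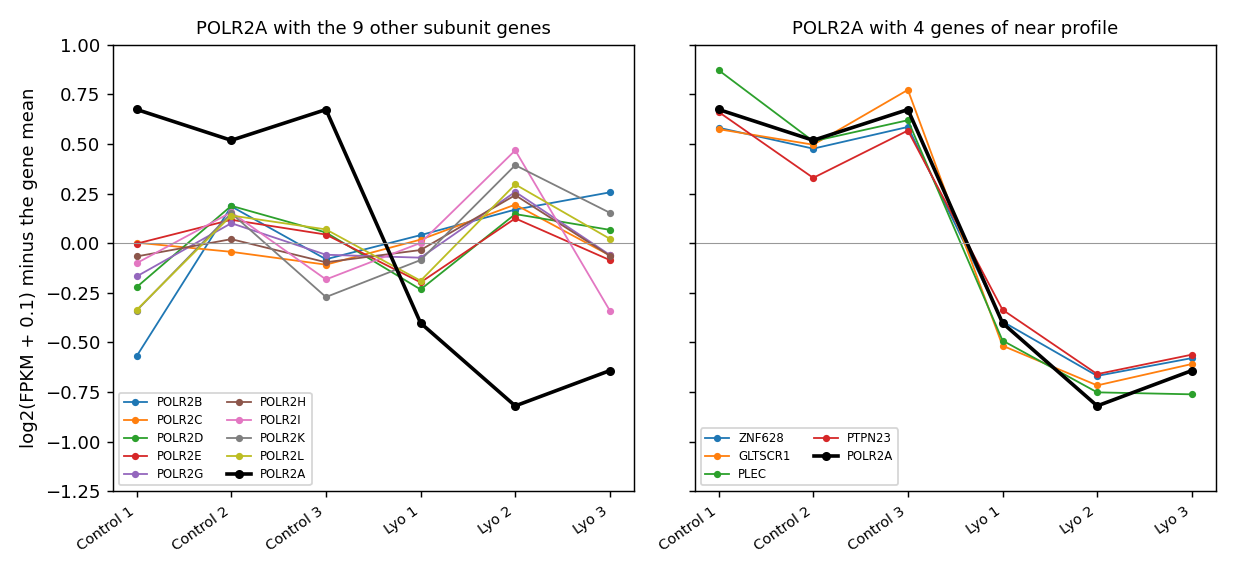
Log2(FPKM + 0.1) minus the mean of each gene in the 6 samples, for POLR2A (black) with the other 9 subunit genes (left) and with 4 of the 5 genes of nearest profile (right), where lines only join the values of a gene. The 4 genes on the right follow POLR2A down in all Lyo samples, and the subunit genes on the left do not. POLR2A was chosen for this drop.

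The 3 pairs were compared as well, since the choice of genes did not use this difference. They are called culture 1, 2 and 3 here for short. Neither the labels nor the study state that they were separate cultures, so differences in growth, harvest and RNA handling cannot be told apart. A limma F-test of the pair, with the condition in the fit, called 6 of the 10 subunit genes (POLR2B, POLR2D, POLR2G, POLR2I, POLR2K and POLR2L), beside 45.2% of all genes. Culture 2 was above culture 1 in 9 of the 10 genes, and over all genes the median difference was 0.11. The share of all genes that were higher in culture 2 was not computed, so nothing is read from this count. POLR2K had the highest F, with culture 2 at 0.48 ± 0.07 (SE) above culture 1 on the log2 scale (adjusted p = 0.00127), followed by POLR2L with the same 0.48 ± 0.07 (SE, adjusted p = 0.00161). POLR2A went the other way, with culture 2 at -0.29 ± 0.09 (SE) against culture 1, but its F-test did not pass (adjusted p = 0.0637). POLR2I differed most between cultures 2 and 3, at 0.36 ± 0.10 and -0.21 ± 0.10 (SE) against culture 1. With the GC correction 7 of the 10 genes were called, beside 50.3% of all genes. Control 1 had the lowest depth and Lyo 1 the highest, and the part of depth in these culture differences was not tested.

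**Figure D5:**
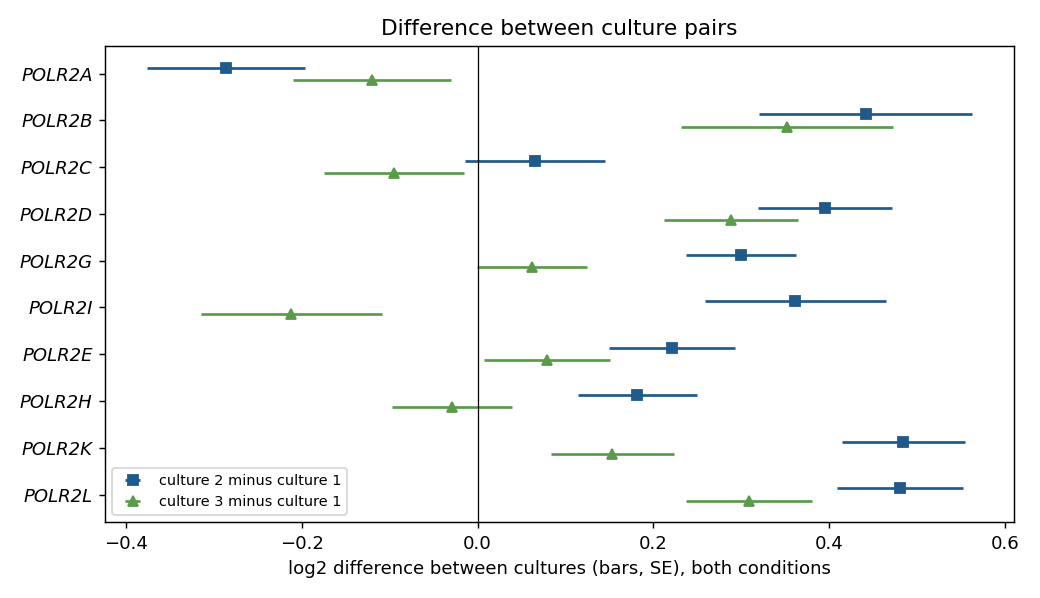
Log2 difference of culture 2 (squares) and culture 3 (triangles) from culture 1 in each subunit gene, over both conditions, with bars of 1 SE. Culture stands for the pair number. Culture 2 is above culture 1 in 9 genes, up to 0.48 in POLR2K and POLR2L, and below it, at -0.29, in POLR2A. The share over all genes was not computed.

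Related transcription genes were read for the same contrast. The remaining Pol II subunit genes POLR2F, which is shared with Pol I and Pol III, and POLR2J, the partner of POLR2C, had changes of 0.12 ± 0.19 and 0.08 ± 0.11 (SE), and neither was called without the pairing or with the pair as a block (adjusted p = 0.231 and 0.344). With the GC correction both were called higher, at 0.29 (adjusted p = 0.0248) and 0.22 (adjusted p = 0.0173), in a fit that called 9.53% of all genes higher. The 6 genes of Pol I only had a median change of 0.07, from -0.32 ± 0.15 in POLR1A, the large subunit of Pol I, to 0.35 ± 0.24 (SE) in TWISTNB. POLR1A had 8.68, 10.9 and 10.4 FPKM in the controls against 6.70, 8.59 and 8.67 FPKM in the Lyo samples, without overlap. The 11 genes of Pol III only had a median of 0.01, from -0.18 in CRCP to 0.44 in POLR3B, and POLR1C and POLR1D, shared by Pol I and Pol III, stood at 0.03 and 0.06. Without the pairing limma called 0 of these Pol I and Pol III genes, also at an unadjusted p under 0.05. With the pair as a block it called POLR1A lower (adjusted p = 0.0169) and TWISTNB higher (adjusted p = 0.0303) among the genes of Pol I only, and 2 genes of Pol III only higher (POLR3F and POLR3G, named after their values were seen), where 14.9% of all genes were called lower and 15.9% higher. With the GC correction POLR1A stood at -0.23 (adjusted p = 0.0475) and TWISTNB at 0.05 (adjusted p = 0.614), ZNRD1, also named after its value was seen, was called higher at 0.20 (adjusted p = 0.0489), and no gene of Pol III only passed the threshold. The shares of all genes called in that fit were 7.45% lower and 9.53% higher. POLR2A was therefore below the other large subunit genes in fold change, a difference given here with no test.

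Of the 18 general transcription factor genes, which place Pol II at promoters, all were tested and 0 were called without the pairing in limma (1 at an unadjusted p under 0.05). Their median change was 0.21, and -0.0082 with the GC correction. They ran from -0.24 ± 0.11 in ERCC2, a helicase of TFIIH, to 0.45 ± 0.22 (SE) in CCNH, a cyclin of its CTD kinase. With the pair as a block 1 was called lower and 5 higher, where 14.9% of all genes were called lower and 15.9% higher. With the GC correction 0 were called lower and 1 higher, where the shares of all genes were 7.45% and 9.53%. The 22 genes for elongation factors and CTD enzymes, all tested, had a median change of 0.03, and 0 were called without the pairing in limma (3 at an unadjusted p under 0.05). CCNK, the cyclin of the CTD kinases CDK12 and CDK13, was lowest at -0.34 ± 0.11 (SE), and CTR9, of the PAF complex, was highest at 0.42 ± 0.25 (SE). With the block 5 were called lower and 5 higher, and with the GC correction 1 lower and 4 higher, beside those same shares of all genes. The 9 genes for Pol II assembly factors had a median change of 0.22, and 0.11 with the GC correction. In limma 0 were called without the pairing (2 at an unadjusted p under 0.05). With the block 1 was called lower and 5 higher, and with the GC correction 1 lower and 2 higher, again beside 14.9% and 15.9%, and 7.45% and 9.53%, of all genes. Their lowest gene was RPAP1, which acts in Pol II assembly and import, with 9.79, 11.4 and 11.3 FPKM in the controls against 6.60, 7.95 and 7.94 FPKM in the Lyo samples. Its log2 fold change was -0.53 ± 0.13 (SE), and its transcript has 59.2% GC. RPAP3 was highest at 0.41 ± 0.26 (SE). In all 70 related genes tested, no log2 fold change was below -0.53, whereas POLR2A stood at -1.24.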

How the data were processed

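Poly(A) RNA of 3 Control and 3 Lyo samples of GM12873 was sequenced. Per the submitters' processing notes and the methods of the study, the authors mapped unique reads with TopHat2 2.0.7 to hg19 (GRCh37) after CASAVA 1.4, and they deposited gene-level FPKM values from Cufflinks. The Cufflinks version and the annotation are not given in the sources used here. The labels give only replicate numbers, and the pairing of samples of the same number comes from the study. Deviations from the group means of same-numbered samples correlated at r = 0.715, 0.603 and 0.476 over 11128 genes.

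The 24934 records were reduced to 23284 symbols (highest mean FPKM), and 1637 small RNA symbols were removed. Genes whose mean FPKM exceeded 1 in either group entered limma 3.58.1 (R 4.3.3, trend, Benjamini-Hochberg, threshold 0.05). The fit was on log2(FPKM + 0.1) with the condition alone. The study also compared the 2 groups with this filter and threshold, but it tested with Cuffdiff, so the genes called can differ. The scripts were tested on simulated data with 200 changed genes. Without the pairing, limma recovered 18% of the genes changed by 0.5 on the log2 scale and 52% of those changed by 1. With the pair as a block it recovered 22% and 72%. Small changes were thus mostly missed in both fits of the simulated data. The simulation set the pair part of the variance at 0.6 and changed far fewer genes than the 3421 that the block called in the data. Its recovery therefore need not hold for the real block fit. Alternatives covered the pair as a block, loess corrections (span 0.3, degree 2) for transcript GC content and length over 10860 genes, the pseudocount, the filter, the scaling, the variance trend and each sample or pair left out. P-values measure the spread between samples of 1 cell line. The longest coding transcript in GENCODE (lifted to GRCh37) gave length and GC content. An 8-base gap of that lift within an exon of POLR2A was filled from the genome for the coding sequence.

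The genes and lists were chosen with earlier results of these data known. Named genes were the 10 members, the 5 genes of nearest profile to POLR2A by root mean square difference (1 of them is not reported here), and the lowest and highest gene of each related list. Python 3.11.15, numpy 2.4.6, pandas 2.3.3 and matplotlib 3.10.9 were used.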

Additional observations from a re-analysis of the deposited data

How the results depend on the processing

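POLR2A kept its direction under all alternatives run. Without the pairing, it passed the limma threshold with either other pseudocount, either scaling, the stricter filter and no variance trend, but not with no filter on low values (-1.24, adjusted p = 0.07, main 0.0366). Leaving out each sample gave -1.35 to -1.14 for POLR2A, with no sample left out passing, and -1.49 to -1.12 for its difference from the median of the other 9. That difference was -0.96 with the replicate block, GC and length, against -1.33. Genes past the threshold numbered 64 in the fit without pairing, 97 with median centring, 0 with no filter (2069 at an unadjusted p under 0.05) and 0 without each sample in turn (879 to 2097 unadjusted). They numbered 3421 with the replicate block, 2192, 5354 and 1265 with the block and pair 1, 2 or 3 left out, 1844 with the block and GC and 1055 with GC and length. Of the other 9 genes, 0 passed without the pairing and without each sample, 2 with the replicate block, 1 to 3 with 1 pair left out, 3 with GC and 1 with GC and length. Of the 10 genes, 3 differed between the pairs with no filter and 4 with no variance trend, against 6 or 7 in the other settings. The share of all genes called with no filter or no variance trend was not computed, so nothing is read from these counts.

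Some of the other 9 changed sign. With the block and GC, POLR2K, called at 0.31 with the block alone, was -0.017, and POLR2E was 0.11. With GC and length POLR2E was 0.13, POLR2G -0.018 and POLR2I -0.18. Leaving out each sample gave -0.13 to 0.10 for POLR2D, -0.025 to 0.15 for POLR2G, -0.0015 to 0.15 for POLR2H, -0.061 to 0.20 for POLR2L and -0.13 to 0.28 for POLR2I. With the block and pair 2 left out POLR2D was 0.00062 and POLR2I -0.028. The cause was not tested. With FPKM and 3 samples per group, changes as small as those of the other 9 genes were mostly within the spread between samples.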
